A study of Mus musculus with 48 samples.

Results

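The genes described here were higher in each of the 2 mouse gonads, testis and ovary, than in every one of 3 somatic tissues, liver, kidney and hypothalamus. The gonads contributed 6 of the 24 RNA samples and 12 of the 48 Affymetrix arrays, chosen by the tissue word in the array titles. For each gene, 6 differences were taken, testis and ovary each against liver, kidney and hypothalamus. A gene was called higher in both gonads when the weakest of the 6 passed the test, and the size of that weakest difference on the log2 scale is called the margin below. By this rule 397 of the 10742 genes tested were called.

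The series measured mouse tissue of both sexes: testis, ovary, and liver, kidney and hypothalamus of males and of females, 8 groups of 3 RNA samples, each hybridised to 2 arrays. No group was given a treatment in the labels, and the sources used here state neither strain nor age. Per the labels the RNA was bought, each sample is a pool of 10 animals, and RNA of liver, kidney, ovary and testis was polyA-selected while that of hypothalamus was total RNA, although another field gives total RNA throughout. Since nothing in the labels marks the samples of a group as separate pools, the p-values measure the spread between these samples, which may be technical.

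Testis and ovary share a plan in which germ cells are nursed by somatic supporting cells, the Sertoli cells of the testis and the granulosa cells of the ovary, beside steroid-producing Leydig, theca and luteal cells. Steroid output starts when cholesterol reaches the mitochondrion, where a side chain cleavage enzyme makes pregnenolone, the precursor of progesterone, androgens and estrogens. The supporting cells also secrete inhibin, which lowers pituitary follicle-stimulating hormone, and adult gonads hold dividing and meiotic cells.

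The 3 genes that mark the shared gonadal cells gave an uneven check of this grouping. Inha, the inhibin alpha subunit, read 3221.1, 2892.0 and 2572.3 in the 3 testis samples and 10864.5, 11185.7 and 12644.9 in the 3 ovary samples, in scaled intensity units, with 198.1 to 681.6 in the 18 somatic samples. Star, which carries cholesterol into the mitochondrion, read 436.9, 541.7 and 773.3 in testis and 3419.1, 4984.9 and 5084.9 in ovary, with 78.6 to 379.5 in somatic samples. For both genes every gonad sample lay above every somatic sample. Ddx4, a germ cell RNA helicase, read 2042.6, 2445.6 and 1875.5 in testis and only 35.9, 38.4 and 57.0 in ovary, and its ovary values overlapped the somatic range of 1.35 to 36.8. Ddx4 was therefore not called higher in both gonads (margin 0.44 ± 0.15, SE; limma, adjusted p = 0.105), so the steroid and supporting cell markers bore the label out and the germ cell marker did so in testis alone.

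**Figure D1:**
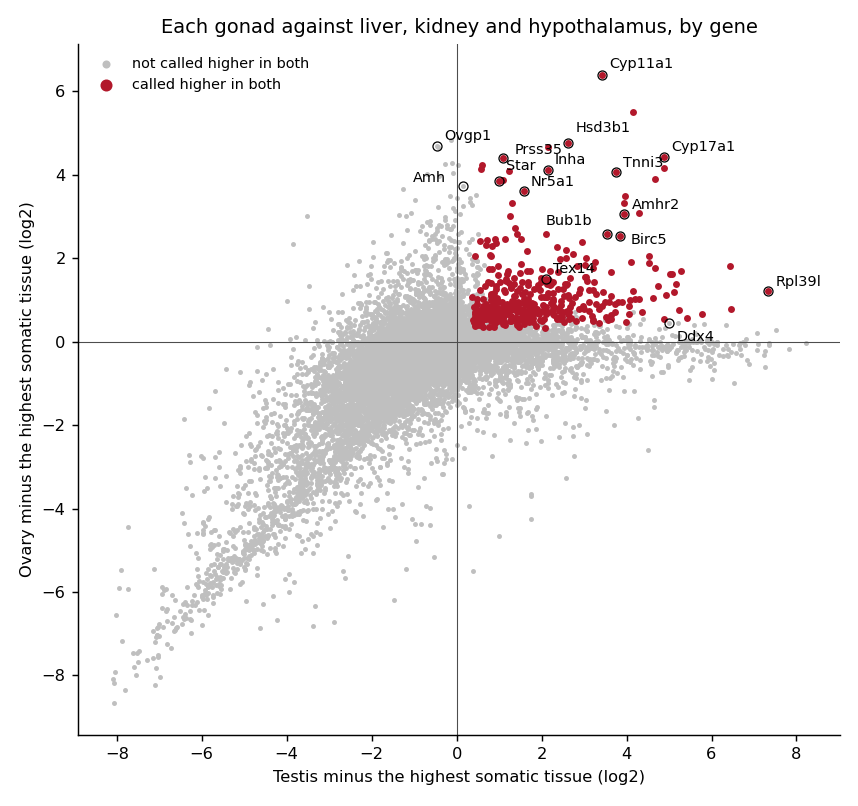
Each point is 1 of the 10742 genes tested; the axes give the log2 difference of testis (horizontal) and of ovary (vertical) from whichever somatic tissue was highest. The 397 genes called higher in both gonads are red and lie to the upper right; Ddx4 is high on the testis axis but near 0 on the ovary axis, and Ovgp1 and Amh are high on the ovary axis alone.

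The scale and some somatic samples bear on these values. The deposited scale sets the trimmed mean of every array to about 500.2, yet array medians ran from 163.3 to 190.8 in testis and from 229.5 to 256.1 in ovary, so centring the arrays on their medians moved the median testis minus ovary difference over all genes by 0.37 on the log2 scale. In addition, the somatic values of Cyp11a1 and Hsd3b1 were highest in 3 samples. Cyp11a1 read 459.5 in male liver sample 2 and at most 12.3 in the other 5 liver samples. Hsd3b1 read 1115.1 and 1131.0 in female kidney samples 1 and 2 and at most 460.3 in the other 4 kidney samples. Leaving these 3 samples out gave 357 genes higher in both gonads, of which 342 were among the 397. In bulk RNA such as this, fewer cells of a type and less RNA per cell cannot be told apart.

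Of all genes tested, 3967 (36.9%) were higher in the gonads than in the somatic tissues when testis and ovary were averaged with equal weight, and 4060 (37.8%) were lower (limma, adjusted p below 0.05). The 397 genes higher in both gonads made up 3.7% of those tested, and 131 of them, or 1.22% of those tested, had a margin of at least 1, which is a 2-fold difference. Their median margin was 0.81, against -0.90 over all genes. In 374 of the 397 genes the 6 gonad samples all lay above the 18 somatic samples, against 525 of all genes tested. Ovary was the nearer gonad for 301 of the 397 genes and testis for 96, and the nearest somatic tissue was hypothalamus for 165, kidney for 143 and liver for 89. The testis and ovary differences share the same 18 somatic samples. With hypothalamus left out, 970 genes were higher in both gonads, and all 397 were among them. Per 1 label field hypothalamus was total RNA and the other tissues polyA-selected. Tissue and RNA preparation therefore cannot be told apart in its differences. The count was 285 after median centring, with 263 of the 397 kept, and 365 after quantile normalization, with 318 kept.

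**Figure D2:**
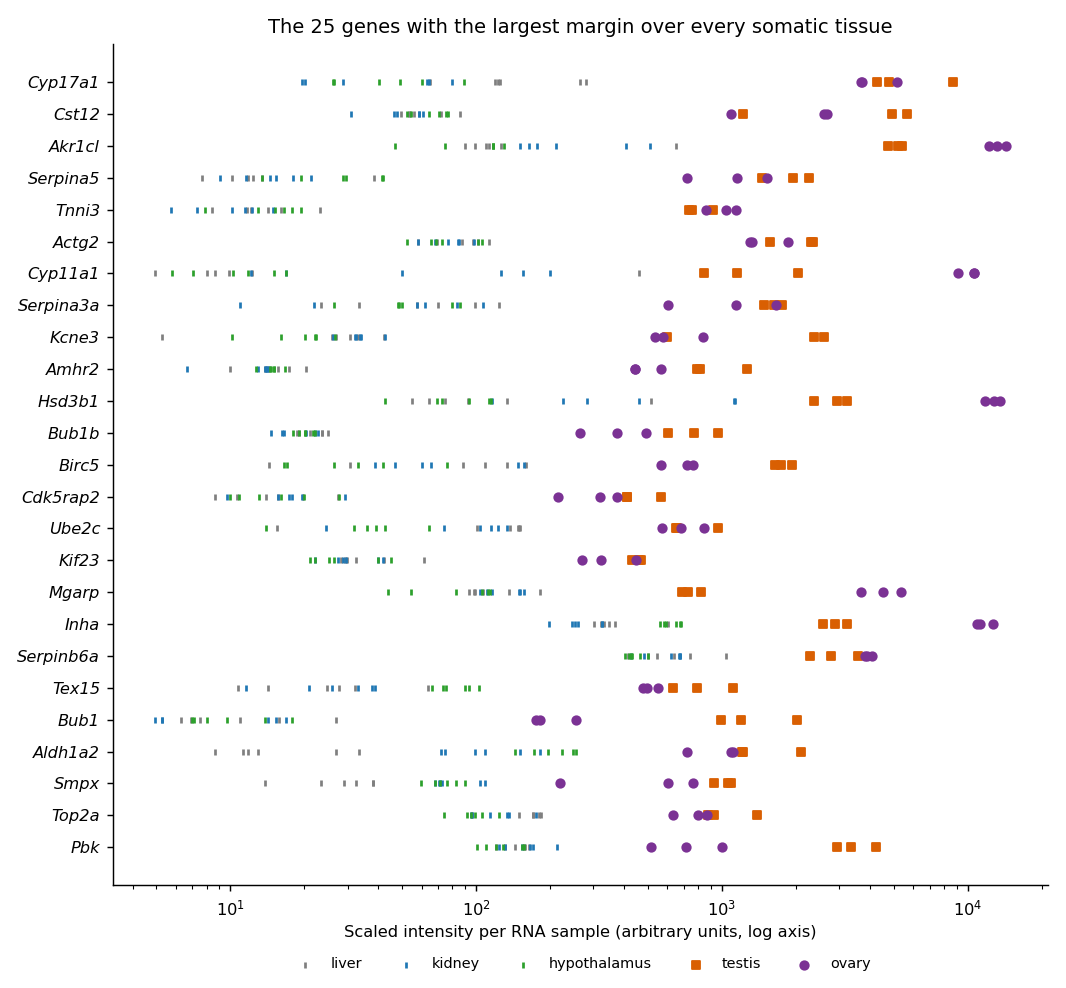
Scaled intensity (log axis) of the 25 genes with the largest margin in each RNA sample; squares are testis, circles are ovary and ticks are the 18 somatic samples. For each gene all 6 gonad samples lie to the right of all somatic samples, from Cyp17a1 (margin 4.43) to Pbk (margin 1.91).

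Steroid synthesis gave the largest single margin. Of 19 tested genes of the pathway, 5 were called higher in both gonads (26.3%, against 3.7% of all genes) and the list's median margin was -0.44. The same count of 5 was found after median centring, after quantile normalization and with the 3 somatic samples left out. Cyp17a1, which turns pregnenolone and progesterone into androgen precursors, read 4798.8, 4279.6 and 8735.3 in testis and 3675.2, 3705.5 and 5170.7 in ovary, against 19.6 to 280.8 in somatic samples. Testis and ovary values overlapped each other and lay far above every somatic sample. Its margin of 4.43 ± 0.26 (SE; limma, adjusted p = 4.18e-11) was the largest of all 10742 genes. Cyp11a1, the side chain cleavage enzyme, read 1147.2, 846.1 and 2038.7 in testis and 9116.9, 10580.1 and 10611.1 in ovary (margin 3.42 ± 0.42, adjusted p = 4.06e-06). The ovary samples stood clear above the testis samples, with a testis minus ovary difference of -2.96 ± 0.48 on the log2 scale (adjusted p = 9.52e-06).

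Hsd3b1, the dehydrogenase that completes progesterone synthesis, showed the same order. It read 2924.4, 2372.2 and 3229.5 in testis and 11783.6, 13576.8 and 12731.6 in ovary, and kidney samples ran from 116.5 to 1131.0. Its margin over kidney was 2.62 ± 0.44 (adjusted p = 0.000282). Star had the smallest margin of the 4 core genes, 1.00 ± 0.19 over kidney (adjusted p = 0.000794), and its other 2 probe sets were also called, with margins of 1.54 and 1.93. Lipe, the hormone-sensitive lipase that frees stored cholesterol, was the last of the 5 and was named after its values were seen. It averaged 1779.6 ± 291.6 in testis and 824.7 ± 100.1 in ovary (SD, n = 3 each), with a margin of 0.78 ± 0.13 (adjusted p = 0.00034).

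Other genes of the pathway were high in ovary without passing the test in testis. Scarb1, the receptor that takes up cholesterol from high-density lipoprotein, averaged 9702.6 ± 1918.4 in ovary and 1152.2 ± 232.3 in testis (SD, n = 3 each), while liver read 3309.0 to 4992.9. Fdx1, the ferredoxin that passes electrons to the side chain cleavage enzyme, averaged 12880.4 ± 1290.2 in ovary and 4552.4 ± 392.6 in testis, while liver read 4937.9 to 7302.6. Akr1c18, which inactivates progesterone, averaged 10449.9 ± 2550.7 in ovary, but the 3 testis samples read 122.8, 36.3 and 44.8. None of 18 tested genes of cholesterol synthesis was called higher in both gonads by limma (1 at an unadjusted p below 0.05), and 5 of the 18 were called higher in the averaged gonads. Akr1cl, an aldo-keto reductase with the third largest margin, read 5198.7, 4721.3 and 5378.7 in testis and 12146.6, 14297.3 and 13129.8 in ovary, against 46.6 to 653.1 in somatic samples (margin 4.14 ± 0.30, adjusted p = 2.48e-09).

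The windows before the start sites of Cyp11a1 and Hsd3b1 are printed. By margin they came first among members of the steroid and germ cell RNA lists that had a promoter entry. Star, Inha and Ddx4 were also looked up, but Star had no entry, nor had Cyp17a1. The Inha and Ddx4 starts lie 532 and 323 bases inside the gene records, so their windows are not printed. Of the 131 genes with a margin of at least 1, 111 were matched by symbol in RefSeq's promoter table (GRCm38.p6). Each line gives the 250 bases before the outermost start, 5′ to 3′ on the gene's strand, at chr9:57997774-57998023 on the plus strand and chr3:98859795-98860044 on the minus strand, with motif matches in capitals. A second start of Cyp11a1 lies 16928 bases inside the gene and is not printed.
Cyp11a1: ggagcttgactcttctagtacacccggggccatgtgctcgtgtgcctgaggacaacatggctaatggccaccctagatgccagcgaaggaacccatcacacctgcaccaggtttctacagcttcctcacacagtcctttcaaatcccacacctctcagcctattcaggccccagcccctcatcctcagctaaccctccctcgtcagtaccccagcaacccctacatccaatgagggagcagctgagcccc
Hsd3b1: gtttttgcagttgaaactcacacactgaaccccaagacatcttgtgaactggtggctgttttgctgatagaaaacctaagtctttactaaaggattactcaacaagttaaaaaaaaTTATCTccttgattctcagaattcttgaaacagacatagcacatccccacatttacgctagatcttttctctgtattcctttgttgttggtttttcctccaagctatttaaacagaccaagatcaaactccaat
Both strands were searched for an NR5A1 site (CAAGGNCA), a GATA site (AGATAA), an E-box (CACGTG), an E2F site (TCCCGC) and a CRE (TGACGTCA), which do not overlap in these windows. The Hsd3b1 window held 1 GATA match, 134 to 129 bases before the start, and the Cyp11a1 window held no match to the 5 motifs. Of the windows not printed, that of Ddx4 held 1 E-box and 1 E2F match and that of Inha held none. At least 1 GATA match was found for 9.91% of the 111 genes, 5.23% of the 325 matched genes among all 397 members and 7.94% of matched tested genes. For the NR5A1 site the shares were 7.21%, 5.54% and 5.77%. Among the 111 and the 325 genes these shares rest on 11 and 17 genes for GATA. For the NR5A1 site they rest on 8 and 18 genes. Whether any of the shares differ was not tested. A match is a run of letters and not a measured binding site.

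The inhibin and anti-Müllerian hormone signals were shared by both gonads at the level of subunits and receptor. Of 24 tested genes for gonadotropin, inhibin and AMH signals, 5 were called higher in both gonads (20.8%) and the list's median margin was -0.73. The count was 4 with the 3 somatic samples left out, Gdf9 being lost (adjusted p = 0.0513). Inha had the largest margin of the inhibin subunits, 2.14 ± 0.14 over hypothalamus (limma, adjusted p = 4.84e-10). Inhba, a beta subunit that also forms activin, read 242.3, 174.4 and 157.2 in testis and 829.9, 629.7 and 836.9 in ovary, against 16.1 to 79.2 in somatic samples (margin 1.25 ± 0.13, adjusted p = 7.77e-07). Inhbb, the other beta subunit, read 512.0, 570.4 and 1023.3 in testis and 5348.1, 4022.9 and 5484.1 in ovary (margin 1.09 ± 0.20, adjusted p = 0.00055). A second Inhbb probe set was not called, with a margin of 0.36.

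Amhr2, the type 2 receptor for anti-Müllerian hormone, ran the other way between the gonads. It read 788.1, 811.7 and 1265.4 in testis and 443.3, 442.9 and 567.6 in ovary, and no somatic sample exceeded 20.3. Its margin was 3.06 ± 0.12 (adjusted p = 6.12e-14), and testis lay above ovary by 0.89 ± 0.14 (adjusted p = 6.99e-06). The hormone itself was not shared: Amh read 1116.0, 958.4 and 1479.7 in ovary but 39.5, 44.6 and 76.6 in testis, within reach of the somatic values of 11.5 to 59.1. Fshr, the follicle-stimulating hormone receptor, averaged 222.2 ± 57.7 in testis and 373.1 ± 58.9 in ovary (SD, n = 3 each) and was not called (margin 0.33 ± 0.17, adjusted p = 0.559). After quantile normalization Fshr was called (margin 0.57, adjusted p = 0.0288), and the list's count was then 6.

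In a list of gonadal transcription factors and their signals, 4 of 26 tested genes were called higher in both gonads (15.4%) with a list median margin of -0.83. The 4 calls held under median centring, quantile normalization and with the 3 somatic samples left out. Nr5a1, the nuclear receptor that drives steroidogenic genes, read 392.4, 353.4 and 856.2 in testis and 1874.0, 2074.3 and 2595.2 in ovary, with at most 189.2 in somatic samples (margin 1.58 ± 0.24, adjusted p = 8.84e-05). Nr0b1, which represses that receptor, was ordered the other way, at 508.5, 494.1 and 557.3 in testis and 167.2, 153.4 and 148.0 in ovary, with at most 38.0 in somatic samples (margin 1.56 ± 0.12, adjusted p = 8.95e-09). The testis minus ovary difference was -2.03 ± 0.28 for Nr5a1 and 1.48 ± 0.14 for Nr0b1.

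Wt1, a zinc finger factor of the early gonad and the kidney podocyte, read 237.8, 332.2 and 368.7 in testis and 602.4, 648.4 and 666.7 in ovary, with kidney at 47.6 to 96.2 (margin 1.51 ± 0.16, adjusted p = 8.38e-07). Dhh, the hedgehog ligand of Sertoli and granulosa cells, was near equal in the gonads at 401.9 ± 59.5 in testis and 379.1 ± 72.7 in ovary (SD, n = 3 each), with 56.9 to 131.9 in somatic samples (margin 1.43 ± 0.15, adjusted p = 5.26e-07). Gata4, a factor of both supporting cell types, was not called by its brighter probe set (margin -0.35 ± 0.17), since liver read 335.8 to 466.1 and testis 253.4 to 365.0. A dimmer Gata4 probe set was called, with a margin of 0.61 (adjusted p = 0.0144).

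**Figure D3:**
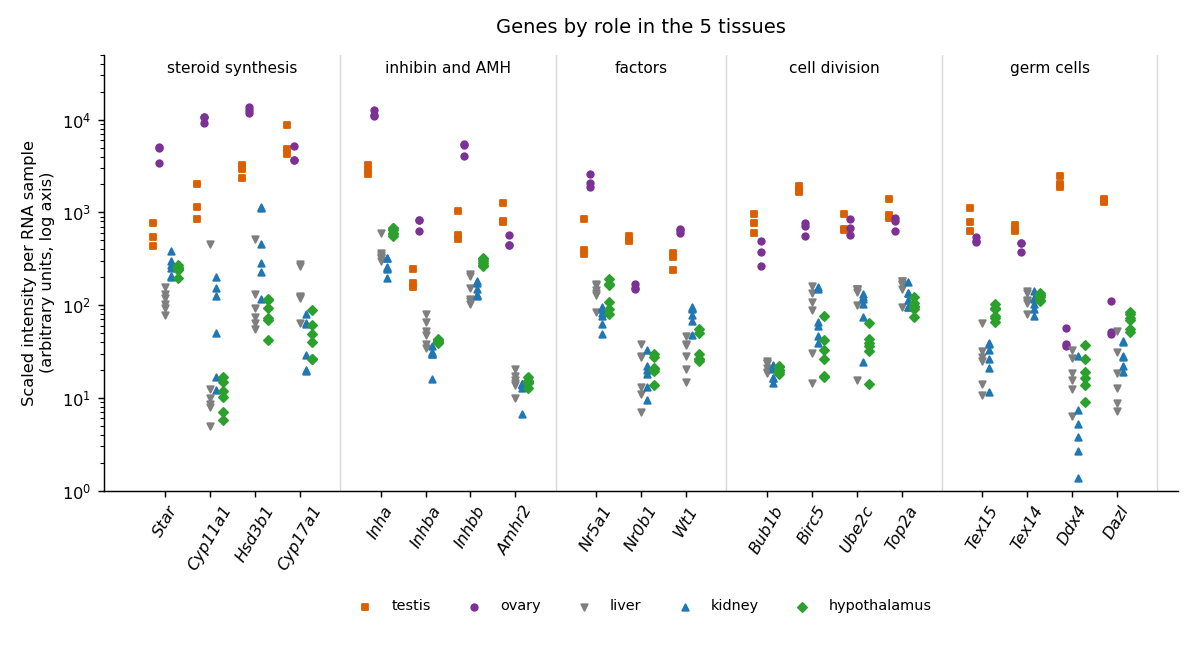
Scaled intensity (log axis) per RNA sample for genes grouped by role, with 3 samples for testis and ovary and 6 for each somatic tissue. Ovary lies above testis for Star, Cyp11a1, Hsd3b1, the inhibin subunits, Nr5a1 and Wt1, testis lies above ovary for Amhr2, Nr0b1 and most cell division genes, and Ddx4 and Dazl are high in testis alone.

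Cell division genes made up the largest group of members. Of 48 tested genes of mitosis and cell division, 29 were called higher in both gonads (60.4%, against 3.7% of all genes). The list's median margin was 0.77, against -0.90 over all genes. Counts were 26 after median centring, 27 after quantile normalization and 28 with the 3 somatic samples left out. Bub1b, a kinase of the spindle checkpoint, read 601.7, 772.8 and 960.2 in testis and 493.2, 265.3 and 372.5 in ovary, with no somatic sample above 24.9 (margin 2.57 ± 0.14, adjusted p = 1.03e-11). Birc5, a subunit of the chromosomal passenger complex, read 1644.8, 1739.7 and 1935.4 in testis and 720.3, 562.5 and 759.0 in ovary, with 14.3 to 159.2 in somatic samples (margin 2.52 ± 0.30, adjusted p = 2.66e-06).

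Ube2c, the ubiquitin enzyme of the anaphase-promoting complex, was even between the gonads. It read 647.5, 960.5 and 657.4 in testis and 683.1, 569.0 and 842.9 in ovary (margin 2.26 ± 0.30, adjusted p = 1.23e-05). Kif23, a kinesin of the cleavage furrow, read 430.3, 470.2 and 459.6 in testis and 447.0, 269.0 and 321.2 in ovary, with at most 61.6 in somatic samples (margin 2.19 ± 0.13, adjusted p = 6.57e-11). Bub1 and Pbk, both mitotic kinases, had wider gaps between the gonads. Bub1 read 1196.4, 992.8 and 2015.0 in testis and 254.3, 175.2 and 182.2 in ovary (margin 2.06 ± 0.16, adjusted p = 6.11e-09), and Pbk averaged 3506.9 ± 661.3 and 745.1 ± 245.9 (SD, n = 3 each). Testis was above ovary in 23 of the 29 called genes, ovary above testis in 1, Ccna2, named after its values were seen, and 5 showed no difference past the threshold. Cks2, which binds cyclin-dependent kinases, was among the 19 not called: ovary averaged 918.7 ± 213.8, while liver read 1005.1 to 1378.4.

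DNA replication followed the same pattern, with 16 of 34 tested genes called higher in both gonads (47.1%) and a list median margin of 0.47. Counts were 12 after median centring and 14 both after quantile normalization and with the 3 somatic samples left out. Top2a, the topoisomerase that untangles sister chromatids, read 880.2, 929.8 and 1393.0 in testis and 866.8, 629.4 and 800.4 in ovary, against 74.3 to 183.7 in somatic samples (margin 1.98 ± 0.17, limma, adjusted p = 3.7e-08). Uhrf1, which keeps DNA methylation through replication, averaged 528.4 ± 106.0 in testis and 297.4 ± 9.86 in ovary (SD, n = 3 each; margin 1.67 ± 0.18, adjusted p = 1.07e-06). Mcm7, a subunit of the replicative helicase, averaged 3406.2 ± 986.0 and 1979.0 ± 221.8 (margin 1.38 ± 0.17, adjusted p = 3.8e-06), and its other 3 probe sets were also called. Mcm5, from the same helicase, read 516.0, 428.3 and 732.0 in testis and 664.4, 513.4 and 697.7 in ovary, so the gonads overlapped (margin 1.36 ± 0.23, adjusted p = 0.000296). Dnmt1, the maintenance methyltransferase, was not called, with hypothalamus at 807.2 to 889.9 and testis at 692.8 to 1053.9.

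Chromatin and repair genes added smaller groups. Of 35 tested chromatin and histone regulators 6 were called higher in both gonads (17.1%) with a list median margin of 0.05, and the count was 4 after median centring and after quantile normalization. Ezh2, the methyltransferase of the Polycomb complex, read 1193.0, 1427.7 and 1052.5 in testis and 508.8, 417.7 and 465.8 in ovary, against 126.9 to 232.4 in somatic samples (margin 0.97 ± 0.11, limma, adjusted p = 2.29e-06). Asf1b and Nasp, both histone chaperones, had margins of 1.12 ± 0.21 and 0.96 ± 0.18, and testis stood above ovary for both (adjusted p = 7.33e-06 and 4.53e-11). A second Nasp probe set was not called (margin 0.02). Hmgb2, a DNA-bending protein, had a margin of 1.35 ± 0.34 (adjusted p = 0.0143), which was lost without ovary sample 1 or 2 and after median centring or quantile normalization (adjusted p = 0.0874, 0.0514, 0.0929 and 0.0730). Among 39 DNA repair genes 5 were called (12.8%) with a list median margin of 0.11. Chek1, a checkpoint kinase, read 150.2, 157.0 and 116.8 in testis and 242.7, 252.7 and 232.1 in ovary, against 14.2 to 86.5 in somatic samples (margin 0.97 ± 0.20, adjusted p = 0.00217). The Chek1 call was lost against somatic samples of the same sex (margin 0.70, adjusted p = 0.108). Parp1, which senses strand breaks, was even between the gonads, at 1352.4, 1394.0 and 2128.5 in testis and 1784.0, 1671.4 and 1684.3 in ovary (margin 0.68 ± 0.13, adjusted p = 0.000742). Rad54l was lost without ovary sample 1 (adjusted p = 0.0890) and Msh6 without testis sample 3 (adjusted p = 0.132).

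An E2F match within 250 bases before a start was found for 20 of 36 matched genes called from the mitosis and replication lists (55.6%). The share was 31.8% of the other matched genes higher in both gonads, 31.4% of all matched genes tested and 18.8% of all genes in the promoter table. These shares describe letters in the windows, and no factor was measured.

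**Figure D4:**
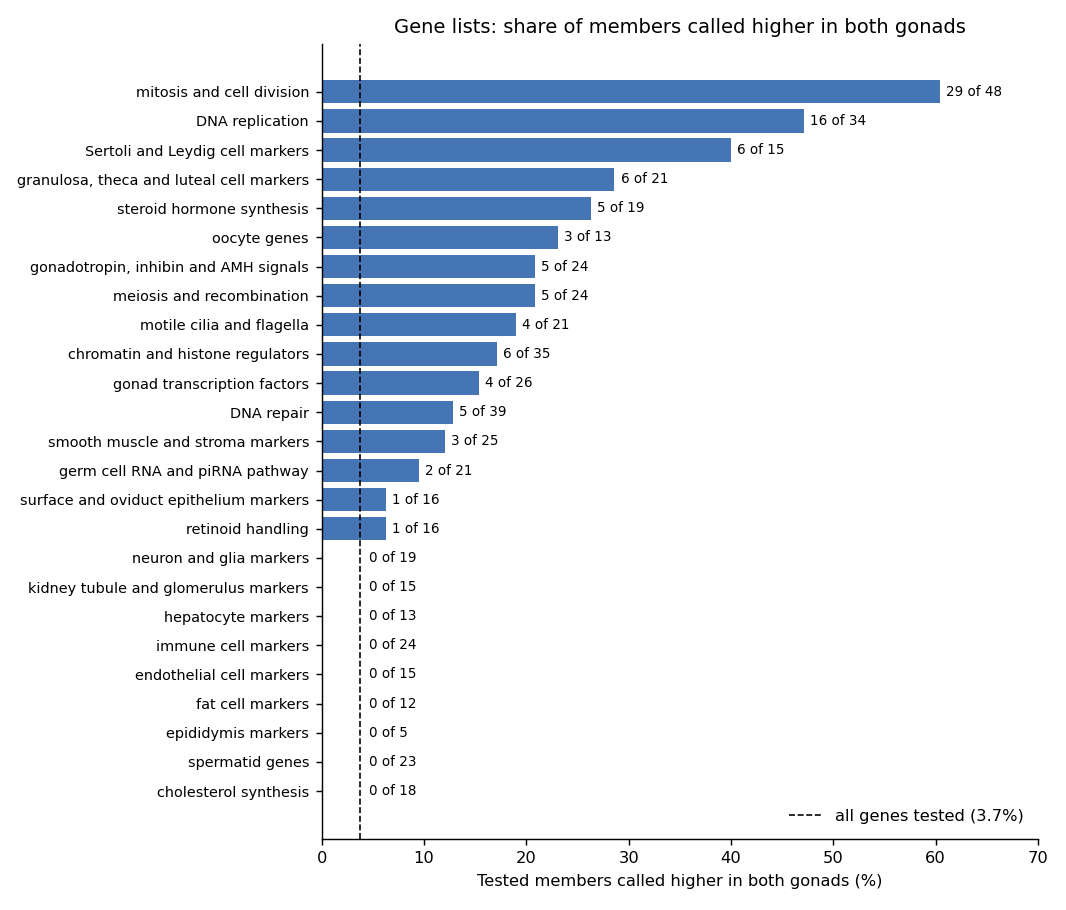
Share of the tested members of each of 25 gene lists that were called higher in both gonads, with counts beside the bars; the dashed line is the 3.7% of all genes tested. Mitosis (29 of 48) and DNA replication (16 of 34) have the largest shares, and 9 lists have 0 called members.

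Some germ cell genes were members. Of 21 tested genes of germ cell RNA handling, 18 were higher in the averaged gonads but 2 were called higher in both gonads (9.52%) and the list's median margin was -0.19. Tex14, needed for the bridges that join dividing germ cells, read 737.8, 668.4 and 634.3 in testis and 471.4, 370.7 and 471.6 in ovary, against 75.4 to 142.7 in somatic samples (margin 1.51 ± 0.13, limma, adjusted p = 4.62e-08). Dnd1, a germ cell RNA-binding protein, had a margin of 0.68 ± 0.15 (adjusted p = 0.00366), which was lost without ovary sample 3 (adjusted p = 0.0766). With testis sample 2 left out, Dazap1 also passed. Ybx2, which stores messenger RNA in germ cells, read 11895.2, 12335.0 and 9999.0 in testis, but ovary read 148.9 to 221.1 and kidney 140.3 to 328.2. Dazl, another germ cell RNA-binding protein, read 1305.9, 1369.3 and 1380.6 in testis and 110.9, 48.7 and 50.9 in ovary, where it overlapped hypothalamus at 51.6 to 83.5. Against liver and kidney alone, Ddx4 and Dazl both passed, with margins of 0.46 and 0.58 (adjusted p = 0.0475 and 0.0206).

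Of 24 tested genes of meiosis and recombination, 5 were called higher in both gonads (20.8%) and the list's median margin was -0.04. The count was 3 after median centring, 4 with the 3 somatic samples left out, and 3 without ovary sample 3. Tex15, which loads recombination proteins onto meiotic DNA, read 790.0, 1112.5 and 633.8 in testis and 477.6, 496.8 and 547.7 in ovary, with at most 102.5 in somatic samples (margin 2.09 ± 0.16, adjusted p = 6.44e-09). Syce2, a protein of the synaptonemal complex, read 5500.0, 5490.9 and 4151.0 in testis and 477.8, 371.7 and 467.7 in ovary, with at most 173.8 in somatic samples (margin 1.34 ± 0.11, adjusted p = 2.19e-08). Both gonads were clear of the somatic samples although testis exceeded ovary by 3.38 ± 0.13 on the log2 scale. Trip13, an ATPase of meiosis and of the mitotic checkpoint, averaged 365.8 ± 29.0 in testis and 293.3 ± 102.5 in ovary (SD, n = 3 each; margin 1.35 ± 0.15, adjusted p = 1.2e-06). A second Trip13 probe set was not called. The remaining calls were Rad51c, lost without ovary sample 3 (adjusted p = 0.0945), and Exo1, which was named after its values were seen and had an adjusted p of 0.0297 and lost its call without any 1 of the 3 ovary samples, testis sample 3, female liver sample 2 or 3, or male liver sample 3. Sycp1 and Sycp3, of the same complex as Syce2, averaged 48.0 and 39.3 in ovary and 648.8 and 1809.1 in testis, and neither was called.

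In all, 3 of 13 tested oocyte genes were called higher in both gonads (23.1%) with a list median margin of 0.03. Btg4, which helps clear maternal messenger RNA, read 505.2, 540.4 and 273.1 in testis and 399.3, 244.3 and 230.8 in ovary, against 35.8 to 67.4 in somatic samples (margin 1.69 ± 0.18, adjusted p = 4.52e-07). Gdf9, the growth factor that oocytes send to granulosa cells, read 364.1, 302.5 and 508.2 in testis and 1644.2, 1229.6 and 1703.8 in ovary, with hypothalamus at 204.8 to 301.7 (margin 0.55 ± 0.16, adjusted p = 0.0338). Nlrp5, a maternal effect gene, averaged 87.1 ± 28.3 in testis and 293.0 ± 148.6 in ovary (SD, n = 3 each; margin 0.78 ± 0.20, adjusted p = 0.0197). The Gdf9 call was lost without female hypothalamus sample 1 or 2, male hypothalamus sample 1, or testis sample 1 or 3, at adjusted p from 0.0736 to 0.348. The Nlrp5 call was lost without female hypothalamus sample 1, male hypothalamus sample 3, or testis sample 1 or 2, at adjusted p from 0.0506 to 0.127. With the 3 somatic samples left out, Btg4 was the 1 oocyte gene called. The zona pellucida genes stayed with the ovary: Zp3 read 1234.1, 765.8 and 1088.6 there and 83.0 to 114.5 in testis, within the somatic range of 44.4 to 129.3. None of 23 tested spermatid genes was called higher in both gonads by limma (0 at an unadjusted p below 0.05), although all 23 were higher in the averaged gonads, since Prm1 read 17430.8 to 21931.4 in testis and 95.8 to 180.4 in ovary.

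Motile cilia and flagella contributed 4 of 21 tested genes (19.0%) with a list median margin of 0.32. Against liver and kidney alone 13 of the 21 were called, and 970 of all 10742 genes against 397 with hypothalamus included. Foxj1, the factor that switches on motile cilia, read 676.0, 618.1 and 1320.3 in testis and 932.4, 1189.6 and 1323.3 in ovary, with hypothalamus at 298.8 to 364.7 (margin 1.19 ± 0.20, adjusted p = 0.000245). Mlf1 read 6994.2, 7830.9 and 5414.8 in testis and 523.6, 441.7 and 588.8 in ovary, with at most 145.8 in somatic samples (margin 1.69 ± 0.16, adjusted p = 1.45e-07). Spag6l, of the axoneme's central pair, averaged 3767.1 ± 1470.4 in testis and 195.9 ± 24.7 in ovary (SD, n = 3 each; margin 1.20 ± 0.24, adjusted p = 0.00196). Spa17 had a margin of 0.56 ± 0.14 (adjusted p = 0.0157), which was lost without ovary sample 1 and after median centring (adjusted p = 0.198 and 0.631). Without testis sample 3, 6 of the 21 were called, Rsph1 and Ift74 being added. Markers of the ovarian surface and the oviduct differed among themselves. Ovgp1, the oviduct glycoprotein, read 10072.4, 7737.1 and 8208.1 in ovary against 132.4 to 241.5 in testis. The 18 surface and oviduct epithelium markers summed to 22359.9 to 27187.5 in ovary, 4202.6 to 5483.9 in testis, 6004.3 to 9385.4 in liver, 9762.0 to 12706.9 in kidney and 2336.5 to 2671.8 in hypothalamus. Ovary lay above every somatic tissue for 5 of the 16 tested markers, with a median ovary margin of -0.51, against -0.35 over all genes. Epcam, an epithelial adhesion protein, read 2193.0, 2019.6 and 1778.7 in ovary and 1667.4 to 3146.3 in kidney, and the ranges overlapped. The part of oviduct RNA in the ovarian cilia values was not tested.

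Markers of the wall and fat around each gonad varied beside these results. Actg2, the smooth muscle gamma actin, read 2293.3, 2356.3 and 1562.1 in testis and 1857.4, 1329.8 and 1298.6 in ovary, with 52.4 to 112.8 in somatic samples (margin 3.50 ± 0.17, limma, adjusted p = 1.55e-12). It was 1 of 3 called among 25 smooth muscle and stroma markers, with a list median margin of -0.41. The others were Acta2, lost without testis sample 3 or female kidney sample 2 (adjusted p = 0.34 and 0.0561), and Cnn1, lost without testis sample 1 (adjusted p = 0.0606). The list summed to 92357.6 to 95687.4 in ovary, 22016.8 to 30143.5 in testis and 15426.7 to 42143.6 over the somatic groups. The 14 fat cell markers on the array summed to 33911.5 to 49418.6 in ovary and 3338.5 to 5003.7 in testis, with 30616.7 to 41433.4 in liver, 15496.7 to 23752.0 in kidney and 5652.4 to 6400.0 in hypothalamus. Among them, Car3 averaged 15344.4 in male liver, 14205.9 in female liver and 8643.3 in ovary. Adipoq averaged 5448.9 in ovary, 71.5 in male liver and 56.5 in female liver, with at most 1401.0 in somatic samples. Fabp4 averaged 6482.3, 577.3 and 623.7 in the same order, with at most 3303.6 in somatic samples. Similar sums in ovary and liver therefore do not mean similar levels of each marker. The part of fat RNA in the ovary values was not tested. None of the 12 tested fat markers, 15 endothelial, 24 immune or 5 epididymis markers was called higher in both gonads by limma, with 1 fat marker and 0 of the others at an unadjusted p below 0.05. At the level of averaged gonads, 8 of the fat markers, 1 endothelial, 1 immune and 1 epididymis marker were higher.

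Several leading members belonged to none of these pathways. Cst12, a cystatin of Sertoli cells in the list of Sertoli and Leydig markers, read 5671.0, 4906.8 and 1217.0 in testis and 1084.6, 2666.6 and 2613.3 in ovary, against 31.1 to 86.0 in somatic samples (margin 4.15 ± 0.32, adjusted p = 5.73e-09). Serpina5, a serine protease inhibitor, read 1954.0, 1456.8 and 2265.2 in testis and 722.6, 1147.5 and 1531.4 in ovary, with at most 41.9 elsewhere (margin 3.90 ± 0.19, adjusted p = 1.55e-12). Tnni3, the cardiac form of troponin I, read 755.3, 922.6 and 735.7 in testis and 1140.2, 861.3 and 1041.1 in ovary, and no somatic sample exceeded 23.2. Its margin of 3.75 ± 0.11 had the smallest standard error of the first 5 genes by margin (adjusted p = 1.41e-16). Kcne3, a potassium channel subunit, read 2372.3, 2599.2 and 596.5 in testis, so that testis sample 3 lay among the ovary values of 837.7, 575.7 and 535.9 (margin 3.08 ± 0.28, adjusted p = 5.41e-08).

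Serpina3a and Serpinb6a, further members of the serpin family, were also among the first 25 genes. Serpina3a averaged 1623.6 ± 139.7 in testis and 1137.0 ± 530.3 in ovary, and Serpinb6a averaged 2878.3 ± 649.4 and 3935.4 ± 119.2 (SD, n = 3 each). Aldh1a2, which makes retinoic acid, read 1205.9, 1217.0 and 2093.5 in testis and 718.1, 1107.9 and 1088.9 in ovary, with hypothalamus at 144.3 to 254.5 (margin 2.01 ± 0.20, adjusted p = 1.69e-07). It was the 1 gene called of 16 tested for retinoid handling (6.25%, against 3.7% of all genes). Mgarp, a mitochondrial protein, averaged 745.4 ± 68.0 in testis and 4521.8 ± 837.4 in ovary (margin 2.15 ± 0.16, adjusted p = 2.93e-09). Smpx, a small muscle protein, read 1084.5, 1056.9 and 929.8 in testis and 219.3, 601.5 and 764.9 in ovary (margin 2.00 ± 0.21, adjusted p = 7.36e-07). Cdk5rap2, a centrosome protein, averaged 461.4 ± 88.3 and 303.1 ± 81.1, with at most 29.2 in somatic samples (margin 2.38 ± 0.14, adjusted p = 4.18e-11).

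Marker lists of the supporting and steroid cells overlapped with the groups above. In these lists, 6 of 15 Sertoli and Leydig markers and 6 of 21 granulosa, theca and luteal markers were called higher in both gonads. Cyp17a1, Cyp11a1 and Star are in both lists. The median margins were 0.07 and -0.27. Sertoli and Leydig markers summed to 32306.8 to 35688.3 in testis and 26062.4 to 34180.3 in ovary, ranges that overlap. Of the genes in both lists, Cyp11a1, Star and Cyp17a1 averaged 10102.7, 4496.3 and 4183.8 in ovary. In testis they averaged 1344.0, 584.0 and 5937.9. The overlap is therefore not a measure of Sertoli and Leydig cells alone. Granulosa, theca and luteal markers summed to 14727.6 to 24159.8 in testis and 74145.4 to 84222.9 in ovary. In somatic tissue the first list reached 15340.1 in liver, 5685.1 in kidney and 20133.7 in hypothalamus. The second ran from 12898.6 to 16755.1 in liver, which overlaps testis, and reached 14162.5 in kidney and 5503.9 in hypothalamus. Sfrp4, a luteal cell gene, stayed with the ovary at 11220.4 ± 1439.2 against 451.6 ± 121.6 in testis (SD, n = 3 each).

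The members were not evenly balanced between the gonads. Over all genes tested, 2669 (24.8%) were higher in testis than in ovary and 4720 (43.9%) were higher in ovary (limma, adjusted p below 0.05). The split was 4017 to 3454 after median centring and 3460 to 3960 after quantile normalization. Among the 397 members, 226 were higher in testis, 40 higher in ovary and 131 without a difference past the threshold. For the members the split was 300 to 30 after median centring and 254 to 37 after quantile normalization. The order of the members was thus the reverse of all genes on the deposited scale and after quantile normalization. After median centring both leaned to testis.

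**Figure D5:**
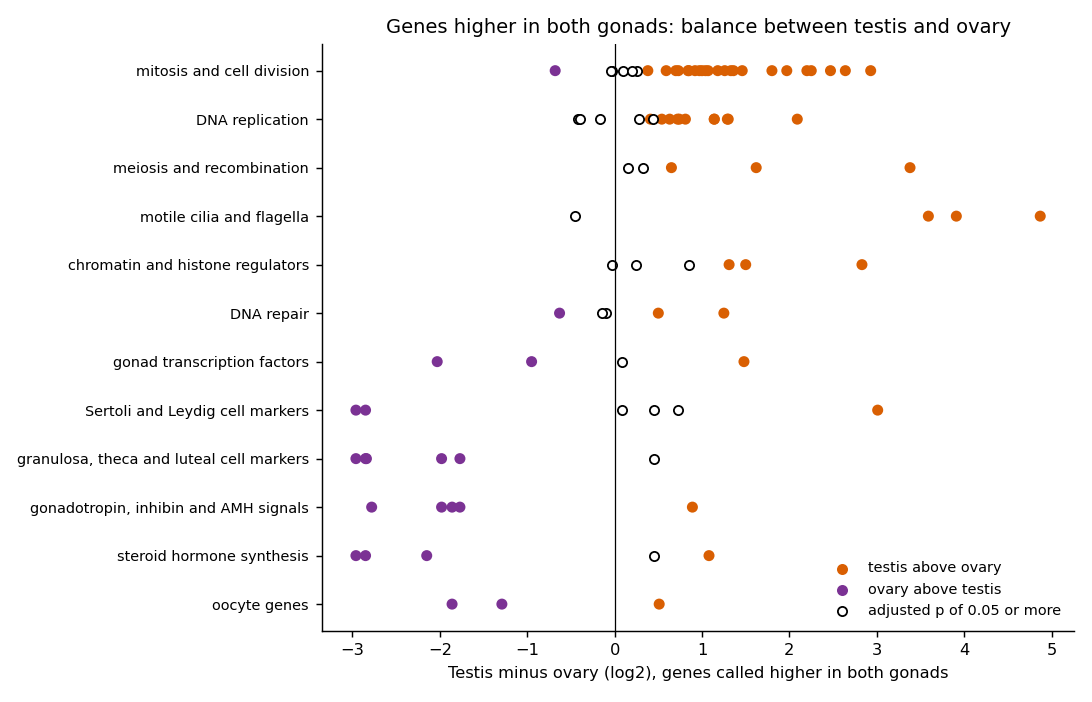
Testis minus ovary on the log2 scale for genes called higher in both gonads, by gene list; orange points are higher in testis, purple points higher in ovary, and open points did not pass the test. Mitosis genes lie mostly to the right of 0 (23 higher in testis and 1 higher in ovary), and the inhibin and AMH list lies mostly to the left (1 higher in testis and 4 higher in ovary).

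At the testis end of the members with a margin of at least 1 stood Rpl39l, a ribosomal protein of germ cells. It read 11524.6, 10789.5 and 10827.4 in testis and 116.4, 97.7 and 122.6 in ovary, with 4.75 to 38.8 in somatic samples, a testis minus ovary difference of 6.12 ± 0.13. Tulp2, Creb3l4 and Lrrc51 followed with Spag6l, at differences of 4.63, 3.84, 3.78 and 3.91. At the ovary end stood Prss35, a protease of the follicle, which read 169.9, 147.2 and 254.0 in testis and 2082.2, 2314.6 and 2409.7 in ovary, a difference of -3.29 ± 0.18. Timp1, an inhibitor of matrix proteases, averaged 442.1 ± 90.7 in testis and 3428.4 ± 170.7 in ovary (SD, n = 3 each), and differed by -2.84 ± 0.20. On the deposited scale the closest balance was seen for Fbn2, Zfp57, Gpha2, Ddit4l and Bambi. Median centring moved the median testis minus ovary difference over all genes by 0.37. Genes described above as even or near equal between the gonads are likewise so on the deposited scale. Ddit4l, an inhibitor of growth signalling, read 765.8, 623.3 and 644.7 in testis and 734.9, 637.5 and 706.5 in ovary, with a difference of -0.03 ± 0.15. A second Ddit4l probe set averaged 135.4 in testis and 676.8 in ovary and was not called (margin -0.32), so the balance and the call rest on 1 of its 2 probe sets. Zfp57, which guards imprinted methylation, read 154.9, 182.6 and 230.9 in testis and 223.2, 156.6 and 181.0 in ovary, a difference of 0.02 ± 0.14, which became 0.39 after median centring and then passed the test.

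Fewer genes were shared in the other direction. A total of 69 genes (0.642%) were lower in each gonad than in every somatic tissue, and 67 of these had no overlap between gonad and somatic samples, against 140 of all genes tested in that direction. Ttr, the thyroxine carrier made by liver and choroid plexus, read at most 167.4 in testis and 23.4 to 31.5 in ovary against 2851.0 to 21956.1 in somatic samples, and was the 1 hepatocyte marker of 13 called lower. In the other 24 lists limma called 0 genes lower in both gonads, and at an unadjusted p below 0.05 only 2 immune markers were lower. Its smallest difference was -5.47 ± 0.27 (limma, adjusted p = 3.32e-12). Ddc, the enzyme that makes dopamine and serotonin, read 29.7, 56.5 and 49.4 in testis and 92.4, 82.4 and 65.8 in ovary, with no somatic sample below 924.5 (-3.12 ± 0.21, adjusted p = 1.39e-09). Fabp7, Abat and Gjb1 followed at -2.72, -2.10 and -1.95. Abat degrades the transmitter GABA and Gjb1 is a gap junction protein. By probe set the split was 573 higher to 108 lower, against 399 to 145 after median centring.

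The members were spread over the chromosomes. The share of tested genes called higher in both gonads ran from 1.85% on the X chromosome, 6 of 325 genes, to 5.51% on chromosome 8, 31 of 563 genes. Of the 397 members, 307 were in none of the 25 gene lists. Among the 129 members with several tested probe sets, all probe sets were called for 48 and at least 1 was not called for 81. The genes just inside the threshold were Cct2 and Mprip (adjusted p = 0.0482 and 0.0486), with margins of 0.44 and 0.40. Just outside it were Fam53a and Eme1 (adjusted p = 0.0514 and 0.0516), with margins of 0.50 and 0.56.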

How the data were processed

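The authors deposited linear intensity values for each probe set on each array, scaled to a common level: the 2% trimmed mean of each array lay between 500.11 and 500.23. The software that made them is not given in the sources used here. Samples were grouped by the array titles. From these values log2(intensity + 48.3) was computed, 48.3 being the 20th percentile, and the 2 arrays of each RNA sample were averaged. Their correlation was 0.966 to 0.989 in the gonads, and 0 arrays were identical. The pseudocount makes fold changes of dim genes too small.

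Of 22626 probe sets without controls, 20380 had 1 gene symbol in the platform annotation. Of all 22626, whatever their symbols, those above the 40th percentile of their sample in at least 3 of 24 RNA samples, 18092, were tested. The brightest tested probe set with 1 symbol stood for its gene. One limma fit (3.58.1, R 4.3.3) of all 8 groups gave the differences. The largest of the 6 one-sided p-values was adjusted by Benjamini-Hochberg over probe sets, with a threshold of 0.05; the averaged gonads and testis against ovary were tested two-sided. Gene symbols came from the GRCm38.p6 gene table.

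The members and lists were chosen with earlier results of these data known. Named genes were the 25 with the largest margin and no overlap, the first 5 lower in both, up to 4 called members by margin and 3 not called of each list, the extremes and the closest values of testis minus ovary, the genes beside the threshold, and markers named whatever their result. Alternatives varied the pseudocount, filter, normalization, arrays, fit, somatic samples and call rule, and left out each RNA sample in turn. The number of arrays limits the precision.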

Additional observations from a re-analysis of the deposited data

How the results depend on the processing

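Counts here are of probe sets: 573 higher in both gonads, 184 of them at least 2-fold, 108 lower in both, 13292 different between averaged gonads and somatic tissues, and 12238 between testis and ovary. No named gene moved from called higher to called lower in both gonads, or back, under any alternative run. The margin of some genes not called did change sign, as for Ehmt2, from -0.31 to 0.74 with liver and kidney only. Calling a probe set when each of the 6 differences passed its own adjusted p gave 858 higher and 284 lower. A pseudocount 4 times as large left 66 at least 2-fold, by construction of the scale. With liver and kidney only, 1497 were higher, 430 at least 2-fold and 980 lower. This setting asks for fewer differences and also drops hypothalamus, labelled total RNA beside the polyA-selected others. These changes cannot be told apart. Using somatic samples of the same sex gave 69 lower, with the averaged contrast the same by construction. Leaving out 1 RNA sample gave 430 (without ovary sample 1) to 601 (without testis sample 3) higher, 171 to 187 at least 2-fold, and 71 (without ovary sample 3) to 109 lower. The cause of these changes across samples was not tested. With the 3 somatic samples left out, chosen after seeing the data, 522 were higher, 499 of them among the 573. With the replicate block, 615 were higher, 184 at least 2-fold and 124 lower, and it moved no count by over 1.5 times. Among named genes the block lost Cct2 and Mprip (adjusted p = 0.0537 and 0.0535) and gained Rsph1, Ift74 and Eme1 (0.0179, 0.0229 and 0.0350). Deviations of same-numbered samples correlated at 0.0395 to 0.132 between testis and ovary and -0.153 to 0.213 between gonads and somatic groups, where female liver with testis (0.102 to 0.138) was the 1 pair of groups with all 3 values over 0.1. Between somatic groups they reached 0.372 to 0.591 for male with female kidney and 0.182 to 0.449 for male liver with male kidney. The numbers thus deviate together in some somatic groups and not between the gonads. Of 70 named genes called higher in both gonads, 58 kept the call whichever RNA sample was left out.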
